A study of Homo sapiens with 8 samples.

Results

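Genes of cholesterol and fatty acid synthesis, with the regulators that set their transcription, were followed in HEK293T, a human embryonic kidney line, after overexpression of KCNQ3, a voltage-gated potassium channel subunit best known from neurons. The 29 genes were chosen by name, with earlier results of these data known, out of 58592 genes in the annotation and 19280 that had enough counts to be tested. All 29 were measured well enough to be tested. They comprise 8 enzymes from acetoacetyl-CoA to squalene, 11 from squalene to cholesterol, 6 regulators and transport proteins, and 4 enzymes of fatty acid synthesis. Each condition had 4 libraries of total RNA, harvested 48 hours after transfection per the labels: HEK293T cells transfected with a tagged construct of the human KCNQ3 coding sequence using FuGene HD, and normal HEK293T cells as controls. All cells were of the HEK 293T/17 stock and grew in high-glucose medium with fetal bovine serum, penicillin and streptomycin. The labels give the same transfection text for every sample, and the sources used here do not give whether control cells were mock transfected, so transfection and KCNQ3 itself cannot be told apart as the source of a difference.

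Cholesterol synthesis starts with the condensation of acetyl-CoA units to mevalonate, runs through isoprenoid intermediates to squalene, and ends with a long series of ring closures, demethylations and reductions. Its enzymes are switched on together by SREBP-2, encoded by SREBF2, while SREBP-1, encoded by SREBF1, acts mainly on fatty acid synthesis. Both are held in the endoplasmic reticulum with the escort protein SCAP by the INSIG proteins when sterols are plentiful, and are cut and released to the nucleus when sterols run low. INSIG1 is itself a target of SREBP, and SREBF1 is also a target of the oxysterol receptor LXR, which drives sterol export genes when sterols are abundant.

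Total estimated counts ran from 24020097 to 30734915 per library. The share of mitochondrially encoded genes was 4.82% to 5.84% in overexpression libraries and 3.99% to 5.59% in controls. KCNQ3 checked the labels, with 573, 657, 735 and 771 CPM in overexpression replicates 1 to 4, against 0.130, 0.189, 0 and 0.0795 CPM in control replicates 1 to 4. CPM is an estimated count scaled to the library's total count, with TMM factors. The HEK293 markers used as a check (NEFL, NEFM, PAX2, VIM, KRT8 and KRT18) averaged at least 1 CPM in 6 of 6. Of 5 hepatocyte markers and 4 adipocyte markers, types that make or store much lipid, 0 reached a mean of 1 CPM, the hepatocyte sum being at most 0.290 CPM in overexpression libraries and 0.239 CPM in controls. Summed adipocyte markers, nearly all PLIN1, ran from 0.663 to 1.09 CPM in overexpression libraries and from 0.870 to 1.17 CPM in controls. APOB, TTR, SERPINA1, LEP and FABP4 were at 0 in all libraries. Summed fibroblast markers were at 14.9 to 19.3 CPM in overexpression libraries and 15.6 to 19.1 CPM in controls, most of it COL1A1, with COL1A2 and DCN at 0. Blood markers summed to at most 0.261 CPM in overexpression libraries and 0.251 CPM in controls.

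Of the 29 genes, 0 passed edgeR's quasi-likelihood test at an adjusted p of 0.05, where 0.301% of all genes tested were called. The smallest adjusted p among them was 0.0628. At an unadjusted p under 0.05, 6 were higher and 1 was lower, where 9.92% of all genes were higher and 9.46% were lower by the same rule, and 19.4% were called in either direction. In 4 genes all overexpression libraries lay above all controls, and in 0 all lay below, where 5.84% of all genes tested were higher and 5.77% lower by that rule. The log2 fold change of overexpression over control was above 0 in 23 and below 0 in 6, with a median of 0.09, beside a median of 0.01 over all genes tested, of which 52.6% were above 0. DESeq2's Wald test, run as an alternative, called 5 of the 29, SQLE, TM7SF2, NSDHL, DHCR7 and EBP, all higher and all enzymes of the steps after squalene. It called 5.08% of the genes it tested, 2.16% higher and 2.93% lower. The submitters' design text speaks of 4 biological replicates a condition. The labels do not say whether their cultures were started separately. Each p therefore measures the spread between these libraries, part of which may be technical.

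**Figure D1:**
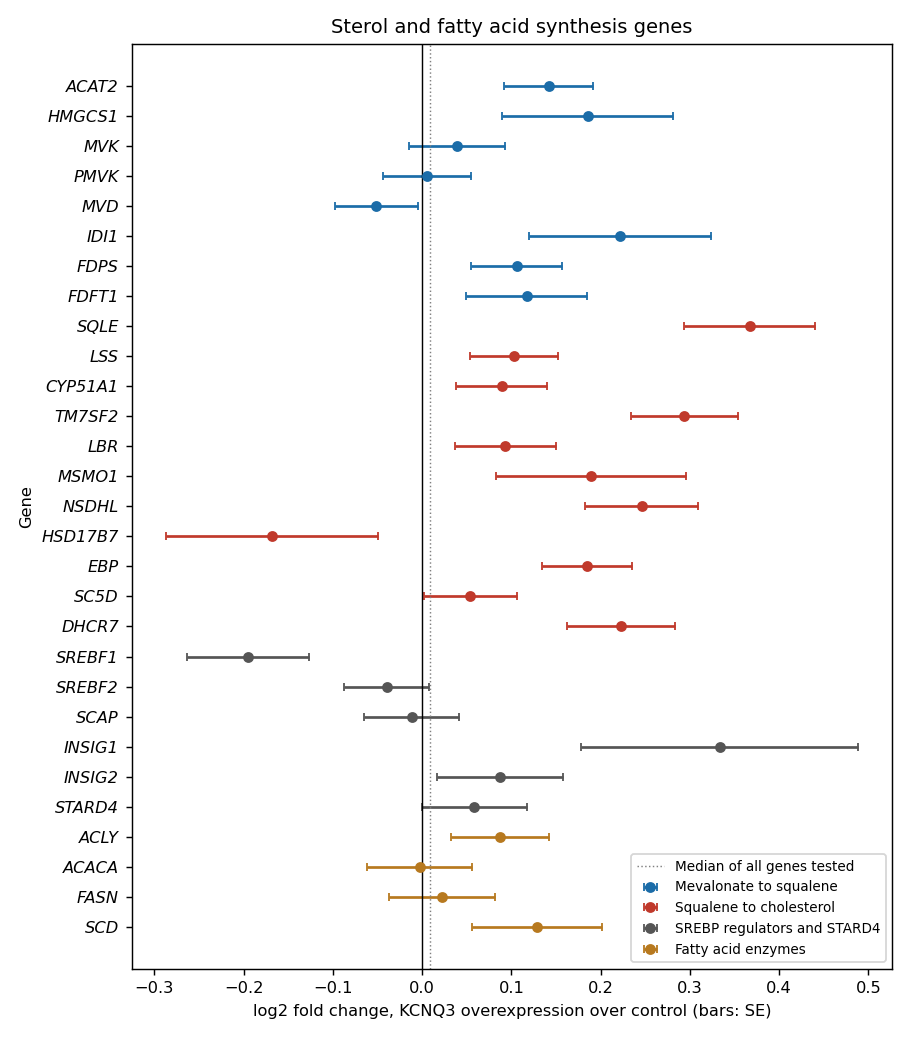
log2 fold change of KCNQ3 overexpression over control for each of the 29 genes (points, bars SE from the edgeR fit, 4 libraries a group), coloured by pathway step, with the median of all genes tested dotted at 0.01. SQLE at 0.37, INSIG1 at 0.33 and TM7SF2 at 0.29 lie farthest to the right, and SREBF1 at −0.20 and HSD17B7 at −0.17 farthest to the left.

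The steps after squalene held 5 of the 6 genes that were higher at an unadjusted p under 0.05. Of all genes tested, 9.92% were higher by that rule. SQLE (ENSG00000104549, chromosome 8, 124998497 to 125022283, GRCh38) encodes squalene epoxidase, which puts the first oxygen on squalene and is a rate-limiting step. It was at 141, 148, 165 and 180.2 CPM in overexpression replicates 1 to 4, against 114, 128, 123 and 127 CPM in control replicates 1 to 4. Every overexpression library lay above every control, with replicate 4 highest and replicate 1 nearest to the controls. The means were 159 ± 17.5 CPM in overexpression libraries and 123 ± 6.30 CPM in controls (SD, n = 4 each), a difference of 28.96% (log2 0.37, SE 0.07). The adjusted p was 0.0628 by edgeR's quasi-likelihood test. An exact permutation of the labels, two-sided, had p = 0.0286, which is the lowest value 70 assignments can give.

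TM7SF2 (ENSG00000149809, chromosome 11, 65111845 to 65116384), a sterol C14 reductase, was at 21.3, 20.1, 21.3 and 23.0 CPM in overexpression replicates 1 to 4, against 17.0, 18.7, 16.8 and 17.4 CPM in the controls. The groups did not overlap, and the overexpression libraries were close to each other. The log2 difference was 0.29 (SE 0.06), with an edgeR adjusted p of 0.0628. The retained-intron transcript ENST00000530650 held 1117 of the gene's 2178 estimated counts in overexpression libraries and 1048 of 1857 in controls. The first bases of TM7SF2 are also the last bases of VPS51, a vesicle tethering gene on the same strand, where reads were divided by the authors' estimate. VPS51 averaged 87.5 ± 3.46 CPM in overexpression libraries and 89.3 ± 5.17 CPM in controls (log2 −0.03, SE 0.05). LBR, the lamin B receptor, which carries the same reductase activity in the nuclear envelope, was at 254, 254, 273 and 297 CPM in overexpression replicates 1 to 4 and at 253, 267, 246 and 245 CPM in the controls, and its groups overlapped (log2 0.09, SE 0.06, adjusted p = 0.395 by edgeR).

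NSDHL (ENSG00000147383, chromosome X, 152830967 to 152869729), a C4 demethylation dehydrogenase, was at 44.99, 49.7, 50.6 and 54.6 CPM in overexpression libraries, against 39.4, 44.3, 40.6 and 44.3 CPM in controls. Its groups did not overlap, but overexpression replicate 1 stood within 1 CPM of the highest controls. The log2 difference was 0.25 (SE 0.06, adjusted p = 0.0936 by edgeR). DHCR7 (ENSG00000172893, chromosome 11, 71428193 to 71452868), which makes cholesterol from its last precursor, was at 73.0, 71.7, 85.9 and 82.1 CPM in overexpression libraries, against 66.1, 69.98, 64.9 and 66.9 CPM in controls. All 4 overexpression values were again above all 4 control values, with replicates 3 and 4 well above replicates 1 and 2 (log2 0.22, SE 0.06, adjusted p = 0.0995 by edgeR). EBP (ENSG00000147155, chromosome X, 48521158 to 48528716), the isomerase that moves the ring double bond, was at 56.1, 62.3, 61.4 and 65.6 CPM in overexpression libraries, against 52.8, 53.2, 56.6 and 53.4 CPM in controls. Overexpression replicate 1 lay below control replicate 3, so these groups overlapped (log2 0.18, SE 0.05, adjusted p = 0.104 by edgeR). For NSDHL and DHCR7 the exact permutation p was 0.0286, and for EBP it was 0.0571. The value of 0.0286 follows whenever the groups do not overlap, so it adds nothing to that statement. Groups did not overlap in 5.84% of all genes tested as higher and in 5.77% as lower.

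The other 5 enzymes of these steps had overlapping groups. MSMO1, the C4 sterol oxidase that works with NSDHL, was at 47.8, 54.8, 60.1 and 64.4 CPM in overexpression libraries, against 41.9, 53.2, 52.9 and 51.3 CPM in controls (log2 0.19, SE 0.11). The low values were those of replicate 1 in both groups, and the log2 value was 0.11 without control replicate 1 and 0.12 without overexpression replicate 4. LSS, which closes the sterol rings, averaged 74.3 ± 4.34 CPM in overexpression libraries and 69.2 ± 2.54 CPM in controls. CYP51A1, the C14 demethylase, averaged 110.3 ± 5.80 CPM in overexpression libraries and 104 ± 5.35 CPM in controls, and SC5D, the C5 desaturase, 146 ± 8.55 CPM in overexpression libraries and 140.3 ± 6.64 CPM in controls. HSD17B7, the C3 ketoreductase of the demethylation complex, was the only one of these 11 with a log2 value below 0. It was at 12.5, 14.6, 13.5 and 14.0 CPM in overexpression libraries, against 11.9985, 16.9, 14.2 and 18.2 CPM in controls, and control replicates ranged more widely than the overexpression ones (log2 −0.17, SE 0.12, adjusted p = 0.474 by edgeR). The log2 value was −0.27 without control replicate 1 and −0.08 without control replicate 4. Reads of HSD17B7 and of its pseudogene HSD17B7P2 may be hard to separate, and HSD17B7P2 averaged 6.63 ± 0.559 CPM in overexpression libraries and 8.23 ± 0.810 CPM in controls, with groups that did not overlap. Reads of CYP51A1 and its pseudogenes CYP51A1P1 and CYP51A1P2 may be hard to separate too. Both pseudogenes had log2 values of 0.12, with all overexpression libraries above all controls, while the groups of CYP51A1 overlapped. Over the 11 genes, 5 were higher and 0 lower at an unadjusted p under 0.05, and the median log2 value was 0.18. Of all genes tested, 9.92% were higher and 9.46% lower by that rule.

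**Figure D2:**
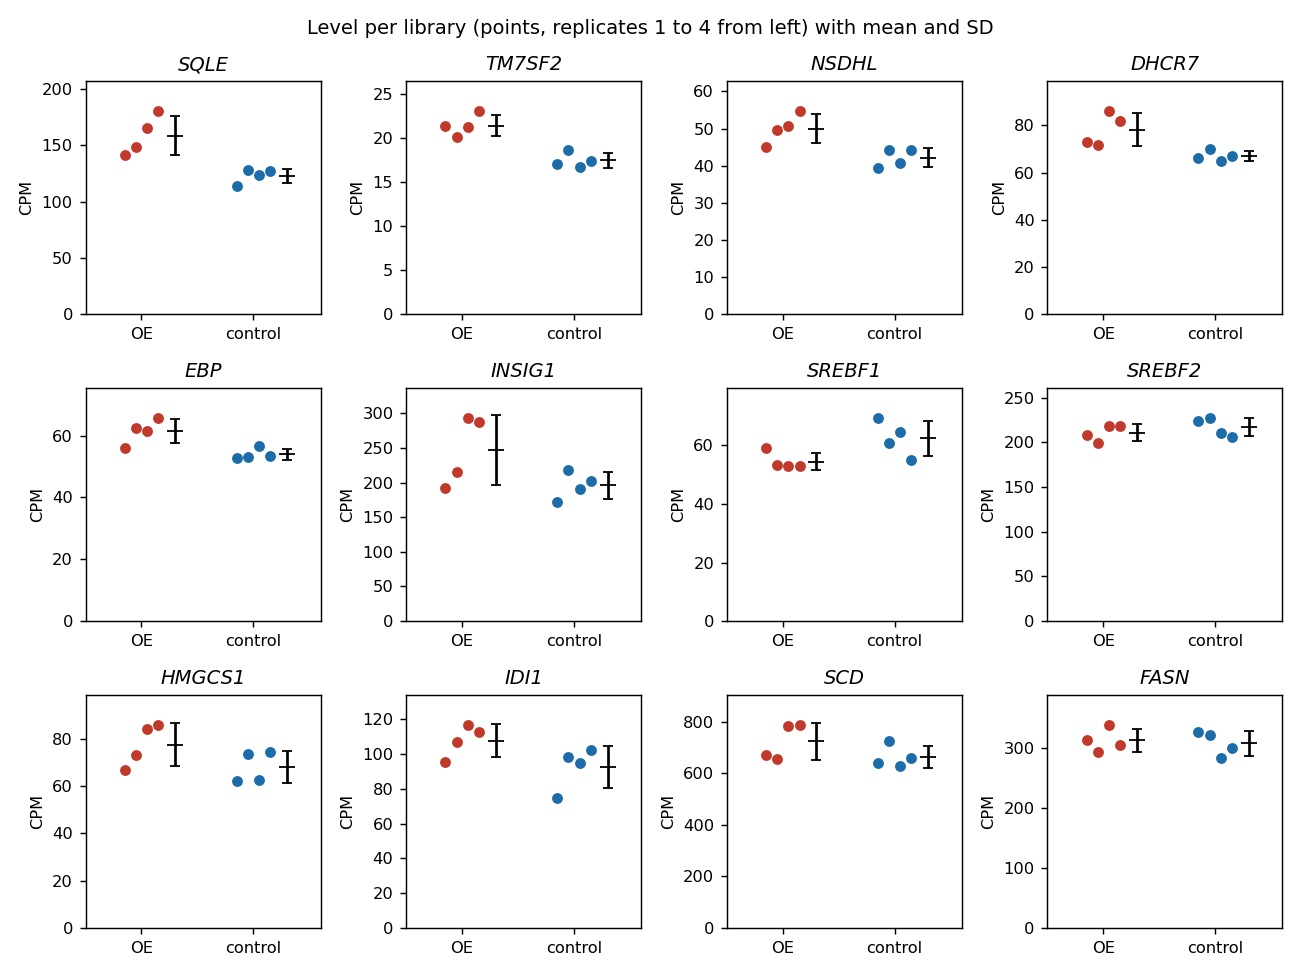
CPM of 12 genes in each library (points, replicates 1 to 4 from left; overexpression, OE, red; control blue) with the mean and SD of the 4 libraries; each axis starts at 0. The groups separate for SQLE, TM7SF2, NSDHL and DHCR7 and overlap for the other 8, and INSIG1 is at 293 and 287 CPM in OE replicates 3 and 4, against 192 and 216 CPM in OE replicates 1 and 2.

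Upstream of squalene the groups overlapped in all 8 genes. Of all genes tested, only 5.84% had all overexpression libraries above all controls and 5.77% had them below. The difference between these 8 genes and the later steps was not tested. ACAT2 (ENSG00000120437, chromosome 6, 159760328 to 159779055), the cytosolic thiolase of the first step, was at 52.8, 60.7, 56.8 and 56.7 CPM in overexpression libraries, against 49.6, 51.7, 50.2 and 54.3 CPM in controls. Overexpression replicate 1 lay among the controls (log2 0.14, SE 0.05, adjusted p = 0.165 by edgeR). Its 3′ end overlaps the abundant chaperonin gene TCP1 on the opposite strand, at 435 ± 23.5 CPM in overexpression libraries and 404 ± 19.6 CPM in controls. The sources used here do not give whether counting used strand, so reads of the overlap cannot be assigned.

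IDI1 (ENSG00000067064, chromosome 10, 1039152 to 1049170), the isopentenyl diphosphate isomerase, was at 95.2, 107, 117 and 112 CPM in overexpression libraries, against 74.8, 98.1, 94.5 and 102 CPM in controls. Control replicate 1 was far below the other controls, and overexpression replicate 1 lay among them (log2 0.22, SE 0.10, adjusted p = 0.277 by edgeR). Without control replicate 1 the log2 value was 0.13. HMGCS1 (ENSG00000112972, chromosome 5, 43289395 to 43313512), the HMG-CoA synthase of the cytosol, was at 66.9, 73.1, 84.2 and 85.8 CPM in overexpression libraries, against 62.0, 73.6, 62.5 and 74.3 CPM in controls. Overexpression replicates 3 and 4 were above all controls and replicates 1 and 2 were not (log2 0.19, SE 0.10, adjusted p = 0.328 by edgeR).

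FDPS (ENSG00000160752, chromosome 1, 155308748 to 155320666), the farnesyl diphosphate synthase, was at 145, 164, 159 and 164 CPM in overexpression libraries, against 140.0, 150.4, 144 and 153 CPM in controls, again with overexpression replicate 1 among the controls (log2 0.11, SE 0.05, adjusted p = 0.287 by edgeR). Exons of FDPS overlap those of RUSC1-AS1 on the opposite strand. RUSC1-AS1 averaged 12.6 ± 1.48 CPM in overexpression libraries and 9.53 ± 2.42 CPM in controls. FDFT1, squalene synthase, averaged 123 ± 10.9 CPM in overexpression libraries and 113 ± 7.10 CPM in controls. The mevalonate kinase MVK, the phosphomevalonate kinase PMVK and the decarboxylase MVD gave log2 values of 0.04, 0.01 and −0.05, each with an SE of 0.05. The 3 act one after another, and in each the groups overlapped. Exons of MVK overlap those of MMAB on the opposite strand, so reads of that overlap cannot be assigned either. MMAB averaged 58.6 ± 4.92 CPM in overexpression libraries and 55.3 ± 3.59 CPM in controls. MVK averaged 17.1 ± 0.525 CPM in overexpression libraries and 16.7 ± 0.677 CPM in controls. Of the 8 genes upstream of squalene, 1 (ACAT2) was higher at an unadjusted p under 0.05 and 0 were lower. By that rule 9.92% of all genes tested were higher and 9.46% lower. The median log2 value of the 8 genes was 0.11.

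SREBF2 (ENSG00000198911, chromosome 22, 41833079 to 41907308) was at 208, 199, 218 and 218 CPM in overexpression libraries, against 223, 227, 211 and 206 CPM in controls. The groups overlapped and the log2 difference was −0.04 (SE 0.05, adjusted p = 0.704 by edgeR). SREBF1 (ENSG00000072310, chromosome 17, 17810399 to 17837002) was at 59.0, 53.3, 52.9 and 52.8 CPM in overexpression libraries, against 69.3, 60.7, 64.6 and 55.0 CPM in controls. In all, 3 overexpression libraries sat below every control, and replicate 1 lay above control replicate 4. The log2 difference was −0.20 (SE 0.07, adjusted p = 0.165 by edgeR), the lowest of the 29, and the exact permutation p was 0.0571. RAI1 overlaps SREBF1 on the opposite strand and averaged 47.3 ± 1.87 CPM in overexpression libraries and 50.5 ± 3.30 CPM in controls. On the TPM scale, which corrects for the length of the transcripts the authors' estimate assigned, SREBF1 averaged 24.3 ± 3.22 TPM in overexpression libraries and 25.5 ± 2.93 TPM in controls, a log2 difference of −0.07 with either pseudocount.

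INSIG1 (ENSG00000186480, chromosome 7, 155297776 to 155310235), which retains SCAP in the endoplasmic reticulum, was at 192, 216, 293 and 287 CPM in overexpression libraries, against 171, 219, 191 and 203 CPM in controls. Replicates 3 and 4 were far above all controls, while replicates 1 and 2 lay inside the control range. The log2 difference of 0.33 was second only to SQLE among the 29, but its SE was 0.15 and its adjusted p 0.298 by edgeR. The coefficient of variation among overexpression libraries was 20.5%, the highest of the 29, whose median was 5.87%. The related INSIG2 (ENSG00000125629, chromosome 2, 118088452 to 118110997) was at 23.0, 21.0, 22.3 and 24.1 CPM in overexpression libraries, against 19.1, 20.9, 23.4 and 21.7 CPM in controls. Its groups overlapped (log2 0.09, SE 0.07, adjusted p = 0.539 by edgeR). SCAP averaged 146 ± 8.47 CPM in overexpression libraries and 147 ± 7.76 CPM in controls (log2 −0.01, SE 0.05). STARD4, a cytosolic sterol carrier, averaged 44.4 ± 1.56 CPM in overexpression libraries and 42.6 ± 3.41 CPM in controls (log2 0.06, SE 0.06). Of these 6 genes, 1 (SREBF1) was lower and 0 higher at an unadjusted p under 0.05. By that rule 9.46% of all genes tested were lower and 9.92% higher.

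The 4 fatty acid genes had a median log2 value of 0.05, beside a median of 0.12 for the 19 sterol enzymes. The difference between these lists was not tested. The groups of all 4 overlapped, where 5.84% of all genes tested did not overlap and were higher, and 5.77% lower. SCD (ENSG00000099194, chromosome 10, 100347124 to 100364834), the stearoyl-CoA desaturase, was at 671, 657, 786 and 788 CPM in overexpression libraries, against 639, 725, 629.6 and 659 CPM in controls. Replicates 3 and 4 were above all controls and replicates 1 and 2 among them (log2 0.13, SE 0.07, adjusted p = 0.365 by edgeR). The log2 value was 0.08 without overexpression replicate 3 and likewise without replicate 4. Reads of SCD and of its pseudogene SCDP1 may be hard to separate. SCDP1 averaged 16.5 ± 1.97 CPM in overexpression libraries and 15.5 ± 1.40 CPM in controls. ACLY (ENSG00000131473, chromosome 17, 41866908 to 41930542), which makes acetyl-CoA from citrate for both pathways, was at 439.8, 424, 477 and 451 CPM in overexpression libraries, against 423, 456, 395 and 413 CPM in controls (log2 0.09, SE 0.05, adjusted p = 0.415 by edgeR). FASN (ENSG00000169710, chromosome 17, 82078333 to 82098332), the fatty acid synthase, was at 314, 294, 339 and 306 CPM in overexpression libraries, against 328, 323, 284 and 300.2 CPM in controls. The groups of both genes overlapped, and FASN had a log2 value of 0.02 (SE 0.06, adjusted p = 0.885 by edgeR). ACACA, the acetyl-CoA carboxylase of the rate-limiting step, averaged 98.4 ± 7.86 CPM in overexpression libraries and 98.6 ± 4.45 CPM in controls. Of the 4, 0 reached an unadjusted p under 0.05 in either direction, where 19.4% of all genes tested did.

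The libraries were not equally high within a group. Among the 19 sterol enzymes, overexpression replicate 4 was the highest of its group in 11 and replicate 1 the lowest in 12, and control replicate 1 was the lowest control in 12. Overexpression replicate 2 was the lowest of its group in 6 of the 19 and in all 4 fatty acid genes. Over all 29 genes, replicate 1 was the lowest overexpression library in 14, replicate 2 in 13 and replicate 3 in 0. Control replicate 2 was the lowest control in 0 of the 29. The same counts were not made over all genes tested, so whether this order is particular to these genes was not tested. KCNQ3 itself was highest in overexpression replicate 4 and lowest in replicate 1, and control replicate 1 had the most counts of the 8 libraries. Their part in the differences was not tested. Without overexpression replicate 1, edgeR called 3 of the 29 genes, SQLE, NSDHL and EBP, all higher, and over all genes 378 in place of 58. In every other fit that left out 1 library it called 0 of the 29, and the total over all genes ran from 8 without overexpression replicate 2 to 194 without control replicate 4.

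**Figure D3:**
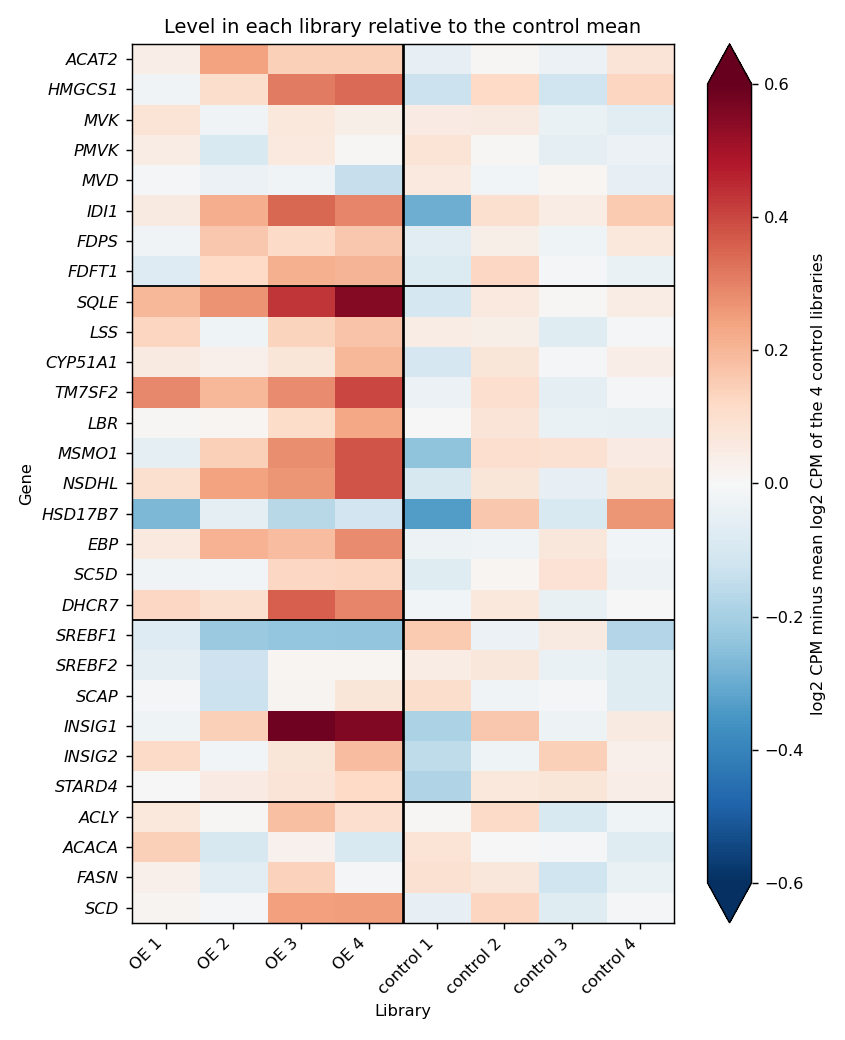
log2 CPM of each of the 29 genes in each library minus the mean of the 4 controls (red above, blue below; the colour scale ends at 0.6 on either side), overexpression (OE) libraries left of the line, genes in pathway order with lines between the groups of steps. SQLE, MSMO1, HMGCS1 and INSIG1 are reddest in OE replicates 3 and 4, HSD17B7 and SREBF1 are blue in all 4 OE libraries, and control replicate 1 is blue for IDI1, MSMO1 and HSD17B7.

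Levels between genes were compared per length, as TPM. SCD was the most abundant, at 218 ± 20.5 TPM in overexpression libraries and 207 ± 15.5 TPM in controls. FDPS followed with 201 ± 8.84 TPM in overexpression libraries and 195 ± 16.4 TPM in controls, and these genes do not differ beyond their SDs in either group. INSIG1 had 168 ± 39.3 TPM in overexpression libraries and 133 ± 10.9 TPM in controls, and ACLY 168 ± 11.1 TPM in overexpression libraries and 165 ± 13.5 TPM in controls. The least abundant was MVK, at 12.7 ± 3.89 TPM in overexpression libraries and 13.7 ± 2.84 TPM in controls, next to HSD17B7, at 14.9 ± 0.716 TPM in overexpression libraries and 17.2 ± 2.11 TPM in controls. Their mean ± SD ranges overlap in both groups. SREBF2 had a higher TPM than SREBF1, at 64.8 ± 3.57 against 24.3 ± 3.22 TPM within overexpression libraries and 68.7 ± 5.49 against 25.5 ± 2.93 TPM within controls.

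Transcript usage, tested with edgeR's diffSpliceDGE, passed in 0 of the 25 genes that had more than 1 transcript to compare, where 0.383% of 9395 genes were called. At an unadjusted p under 0.05, 1 of the 25 passed, where 3.47% of all genes did. That gene was SREBF1 (unadjusted p = 0.0299, adjusted p = 1.00 by edgeR's diffSpliceDGE). Its main transcript ENST00000261646 (4178 bases) held 79.7%, 66.0%, 24.3% and 68.0% of the gene's TPM in overexpression replicates 1 to 4, against 79.6%, 81.6%, 72.6% and 70.6% in control replicates 1 to 4. The low share was that of overexpression replicate 3, where ENST00000395751, of the nonsense-mediated decay class, held 26.4%, which put its mean at 7.11% in overexpression libraries and 1.22% in controls. The next by mean share over all 8 libraries, the retained-intron transcript ENST00000584760, held 5.23% ± 0.852 in overexpression libraries and 4.84% ± 1.21 in controls. For SREBF2, ENST00000361204 held 97.1% ± 0.715 in overexpression libraries and 97.4% ± 0.666 in controls, and ENST00000463741 held 0.945% ± 0.558 in overexpression libraries and 0.977% ± 0.491 in controls. For INSIG1, ENST00000340368 held 64.5% ± 6.78 in overexpression libraries and 68.3% ± 3.16 in controls, and ENST00000476756 held 31.1% ± 6.67 in overexpression libraries and 27.95% ± 3.48 in controls. These shares rest on the authors' division of reads between overlapping transcripts.

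The 250 bases before the annotated start were read for the 25 genes that have an entry in the RefSeq promoter table (GRCh38.p14), taking for each gene the start nearest to that of its most abundant transcript. The nearest start was not always close. For EBP that transcript, ENST00000495186, begins at chrX position 48521158, so the EBP window lies within its span. The windows of PMVK and SC5D likewise lay wholly within the span of their most abundant transcript. Some other windows did so in part, those of NSDHL, DHCR7 and INSIG1 among them. The windows of MVK, LBR and INSIG2 also lay well apart from the start of their most abundant transcript. Searched on both strands were 3 motifs. CACNCCA is a loose form of the sterol regulatory element that SREBP binds, CCAAT is the box bound by NF-Y, which works with SREBP at sterol genes, and GGGCGG is the GC box that Sp1 binds. The SRE-like motif was found in 8 of the 25 windows, or 32.0%, and in 14.7% of all 35116 windows of that length. CCAAT was found in 18, or 72.0%, against 32.0% of all windows, and both in 8 of the 25, against 4.58% of all. The GC box was found in 23, or 92.0%, against 42.6% of all. Matches of the SRE-like motif and CCAAT overlapped in 0 of the 25 windows and in 185 of all. A match describes the letters only, and these shares were not tested. The windows of TM7SF2, NSDHL, EBP and DHCR7 are shown because DESeq2 called these genes, and that of INSIG1 because its log2 value was second to that of SQLE. They lie at chr11:65111622-65111871 on the plus strand (TM7SF2), chrX:152830813-152831062 on the plus strand (NSDHL), chrX:48521558-48521807 on the plus strand (EBP), chr11:71448394-71448643 on the minus strand (DHCR7) and chr7:155297628-155297877 on the plus strand (INSIG1). Each is written 5′ to 3′ along the gene, and capitals mark CACNCCA and CCAAT on either strand, so that the SRE-like motif on the opposite strand reads TGGNGTG and the CCAAT box ATTGG.
TM7SF2: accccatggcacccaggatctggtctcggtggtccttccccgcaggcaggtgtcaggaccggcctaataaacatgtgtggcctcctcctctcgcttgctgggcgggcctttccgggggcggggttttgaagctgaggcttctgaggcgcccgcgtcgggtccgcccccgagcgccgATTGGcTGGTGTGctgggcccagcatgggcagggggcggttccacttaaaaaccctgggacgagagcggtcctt
NSDHL: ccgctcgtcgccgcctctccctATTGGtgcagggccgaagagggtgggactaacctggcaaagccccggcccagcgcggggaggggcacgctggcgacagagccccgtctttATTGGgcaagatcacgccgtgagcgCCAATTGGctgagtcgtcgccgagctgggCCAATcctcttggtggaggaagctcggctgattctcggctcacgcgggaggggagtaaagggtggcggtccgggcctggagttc
EBP: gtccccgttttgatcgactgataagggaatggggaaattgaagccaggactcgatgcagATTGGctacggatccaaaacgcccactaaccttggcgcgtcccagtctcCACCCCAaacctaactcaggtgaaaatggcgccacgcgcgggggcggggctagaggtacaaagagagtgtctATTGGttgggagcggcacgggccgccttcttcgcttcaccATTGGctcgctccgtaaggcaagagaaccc
DHCR7: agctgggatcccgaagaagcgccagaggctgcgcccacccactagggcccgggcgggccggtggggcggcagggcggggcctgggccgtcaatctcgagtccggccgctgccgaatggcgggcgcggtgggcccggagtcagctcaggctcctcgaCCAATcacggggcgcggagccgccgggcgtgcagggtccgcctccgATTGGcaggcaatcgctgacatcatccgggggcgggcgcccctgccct
INSIG1: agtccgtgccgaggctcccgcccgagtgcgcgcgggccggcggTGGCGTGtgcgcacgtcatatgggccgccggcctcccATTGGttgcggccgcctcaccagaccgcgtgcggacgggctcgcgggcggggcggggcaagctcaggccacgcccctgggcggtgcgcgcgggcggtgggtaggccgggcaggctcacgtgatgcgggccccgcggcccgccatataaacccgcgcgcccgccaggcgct

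TM7SF2 and INSIG1 had 1 SRE-like motif and 1 CCAAT box each, and EBP 1 SRE-like motif and 3 CCAAT boxes. NSDHL had 5 CCAAT boxes, 2 of which overlap each other on opposite strands, and DHCR7 had 2, and neither held the SRE-like letters in this window. SREBF2 had 1 SRE-like motif and 1 CCAAT box, and the window of SREBF1 had 0 of both and 3 GC boxes.

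Genes of 4 neighbouring parts of the pathway were read from the same fit, from lists not picked by how their genes moved but written with earlier results of these data known. In all 4 lists 0 genes passed edgeR's test. DESeq2 called TMEM97 and UBE2G2 of the first list and SCARB1 of the third as higher, and ABCG1 and OSBP of the third as lower, and 0 in the other lists. Without overexpression replicate 1, edgeR called TMEM97 and SCARB1. Of all genes tested, 9.92% were higher and 9.46% lower at an unadjusted p under 0.05, and the counts below stand beside those shares. Groups that did not overlap were found in 5.84% of all genes as higher and in 5.77% as lower. Of 13 genes that process SREBP or remove sterol-regulated proteins, 2 were higher and 0 lower at an unadjusted p under 0.05, with a median log2 value of −0.01. They were TMEM97, the sigma-2 receptor, at 93.7, 101, 97.2 and 104 CPM in overexpression libraries, against 82.7, 88.3, 88.3 and 87.9 CPM in controls (log2 0.19, SE 0.04, adjusted p = 0.0779 by edgeR), and UBE2G2, a ubiquitin-conjugating enzyme of the endoplasmic reticulum, at 142 ± 3.96 CPM in overexpression libraries and 127 ± 5.66 CPM in controls (log2 0.16, SE 0.04). The groups of both did not overlap. Of 23 genes of fatty acid elongation, desaturation and supply, 3 were higher and 1 lower by that rule (median 0.06). ELOVL6 and ELOVL1, elongases of long and very long chains, had log2 values of 0.20 and 0.17 (SE 0.06 and 0.05), with groups that did not overlap.

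Of 15 genes of sterol export, esterification, lysosomal release and LXR, 3 were higher and 4 lower at an unadjusted p under 0.05, where 9.92% of all genes were higher and 9.46% lower (median −0.02). SCARB1, the HDL receptor, was at 65.3, 63.6, 69.4 and 67.2 CPM in overexpression libraries, against 58.0, 57.9, 57.1 and 58.8 CPM in controls (log2 0.20, SE 0.04, adjusted p = 0.0607 by edgeR). ABCG1, a sterol exporter driven by LXR, was at 3.34, 3.60, 4.40 and 3.73 CPM in overexpression libraries, against 5.51, 4.92, 5.52 and 4.81 CPM in controls (log2 −0.46, SE 0.10, adjusted p = 0.0705 by edgeR). In both genes the groups did not overlap, with SCARB1 above and ABCG1 below its controls in 4 of 4 libraries. ABCA1, the other main exporter driven by LXR, which was picked after its values were seen, was at 2.59, 2.56, 2.42 and 2.61 CPM in overexpression libraries, against 3.99, 3.29, 3.05 and 3.14 CPM in controls (log2 −0.40, SE 0.11, adjusted p = 0.0976 by edgeR). It too lay below its controls in 4 of 4 libraries, and its difference was −0.14 on the log2(TPM + 1) scale, which understates changes of low genes. The LXR genes themselves, NR1H2 and NR1H3, had log2 values of −0.02 (SE 0.06) and 0.12 (SE 0.09), and MYLIP, a ubiquitin ligase that LXR also drives, −0.03 (SE 0.06). Of 12 genes of the non-sterol branches of the mevalonate pathway, 4 were higher and 0 lower by the same rule, beside the same 9.92% and 9.46% of all genes (median 0.08), among them DOLK, the dolichol kinase (log2 0.26, SE 0.07), and PDSS2, a subunit of the enzyme that makes the tail of coenzyme Q (log2 0.18, SE 0.06).

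**Figure D4:**
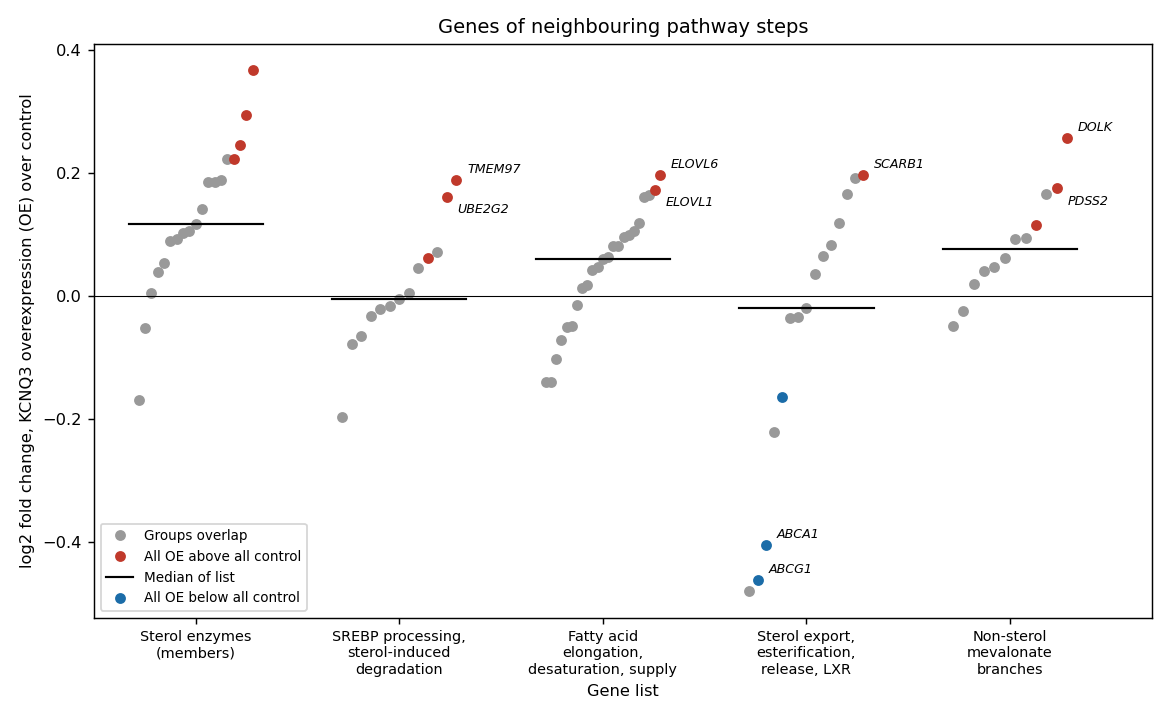
log2 fold change of overexpression (OE) over control for each gene of the 19 sterol enzymes and of the 4 neighbouring lists (points, sorted within a list; red where all 4 OE libraries lie above all 4 controls, blue where they lie below; black line, median of the list). ABCG1 at −0.46 and ABCA1 at −0.40 are the lowest genes whose groups do not overlap, and the sterol enzymes have a median of 0.12.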

How the data were processed

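RNA was sequenced from 8 libraries, 4 of HEK293T overexpressing KCNQ3 and 4 controls. The authors deposited estimated counts and TPM per Ensembl transcript. The submitters' processing notes name HISAT2 2.1.0 and StringTie 2.1.0, with no role, and a GRCh38 build. The sources used here do not give settings, annotation release or strand use. StringTie estimates counts from coverage, so reads shared by transcripts, overlapping genes or pseudogenes were divided by estimate.

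Transcripts were summed per gene through GENCODE 29: 205804 of 227751 identifiers matched, holding 98.7% to 98.9% of the counts. The counts were already whole and needed no rounding. The chi-square per degree of freedom of the 12 replicate pairs was 9.72 to 18.6, above sampling noise, so all 8 libraries were counted. The test was edgeR 4.0.16's quasi-likelihood test (R 4.3.3, TMM, filterByExpr with a minimum count of 10 and total of 15), across all genes with Benjamini-Hochberg adjustment at 0.05. Each SE was derived from the fold change and the F statistic. Exact permutation tests used log2(CPM + 1). Usage was tested with diffSpliceDGE. DESeq2 1.42.0, limma 3.58.1 on log2(TPM + 0.1) and log2(TPM + 1), other scalings, filters and left-out libraries were alternatives. Both tests were tested on simulated data. The gene test missed most changes as small as those of the 29 genes, and the usage test missed most changes and made more false than true calls, so a count of 0 from either does not show that nothing changed. Lists, members and the naming rule were chosen with earlier results of these data known. Given in full were the 3 genes of each step with the lowest unadjusted p, SREBF1, SREBF2 and INSIG1. From each other list the 2 genes with the lowest p were named, not all of them with library values or an adjusted p. Library values of DHCR7, EBP, MSMO1, HMGCS1, LBR, HSD17B7 and ABCA1 were added after they were seen.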

Additional observations from a re-analysis of the deposited data

Results flagged for a closer look

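In 5 of 76 groups of 4 libraries, 1 library stood apart from the other 3 by more than the limit that chance passes in about 1 group in 20. The gap is given as a share of the group's range. SREBF1 in overexpression libraries had a gap of 0.918, with replicate 1 at 59.0 CPM and the others at 53.3, 52.9 and 52.8 CPM. UBE2G2 in overexpression libraries had a gap of 0.977, with replicate 3 at 136 CPM and the others at 143 to 144 CPM. In controls, replicate 1 was low for TMEM97 (gap 0.915, 82.7 CPM beside 87.9 to 88.3 CPM) and for STARD4 (gap 0.854, 37.6 CPM beside 43.7 to 44.8 CPM). Replicate 3 was high for EBP in controls (gap 0.842, 56.6 CPM beside 52.8 to 53.4 CPM), and it is the library that makes the EBP groups overlap.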

How the results depend on the processing

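Counts of calls depended on the fit. Over all genes edgeR called 58, and 35 without a scaling factor, 733 with DESeq2 and 7 on each TPM scale. Without 1 library it called 8 to 378. Of the 29 genes 0 were called, 5 with DESeq2 and 0 to 3 without 1 library. At an unadjusted p under 0.05 there were 7, 3 on each TPM scale and 7 to 13 without 1 library. Over all genes the share at that p was 19.4%, 13.1% on each TPM scale and 22.1% without overexpression replicate 1, the fit that gave 13. The usage test called 0 of 25, and 0 to 1 without 1 library. The median log2 value of the 29 stayed between 0.04 and 0.11 in all 16 alternatives, within the SD between libraries of 0.07. With the replicate block, 11 of the 29 had an unadjusted p under 0.05, beside 20.4% of all genes, 0 were called, and 86 genes were called in all. Over all genes tested, deviations of same-numbered libraries correlated at 0.0139, −0.0127, −0.0457 and −0.0242. No overexpression library correlated best with the control of its own number. These values cannot show whether same-numbered samples were processed together, so pairing was not settled.

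Signs turned only in genes with log2 values in the main fit from −0.0116 (SCAP) to 0.0872 (INSIG2). On log2(TPM + 0.1) and log2(TPM + 1) the values were −0.13 and −0.12 for MVK, −0.0423 and −0.0416 for PMVK, −0.0441 and −0.0405 for INSIG2, −0.0169 and −0.0162 for STARD4 and −0.0323 and −0.0319 for FASN. PMVK was also at −0.0129 without a scaling factor, −0.0019 without a filter and −0.0031 with DESeq2. Without 1 library the values ran from −0.0160 to 0.0332 for PMVK, −0.0435 to 0.0228 for SCAP, −0.0020 to 0.0794 for STARD4, −0.0598 to 0.0248 for ACACA and −0.0216 to 0.0485 for FASN. On the log2(TPM + 1) scale other values also moved by over 1.5 times. They moved to −0.07 for SREBF1, −0.08 for SREBF2, 0.09 for ACAT2, 0.04 for FDPS, 0.29 for HMGCS1 and −0.12 for MVD. Among enzymes after squalene they were 0.01 for LSS, 0.04 for LBR, 0.15 for NSDHL and 0.12 for EBP. They were 0.08 for SCD, 0.02 for ACLY, −0.09 for SCAP and −0.04 for ACACA. In the other lists they were 0.13 for TMEM97, 0.10 for ELOVL6, 0.08 for ELOVL1 and −0.14 for ABCA1. The median over all genes tested was also lower on the TPM scales. It was −0.0376 on log2(TPM + 0.1) and −0.0313 on log2(TPM + 1), beside 0.0090 in the main fit. On these scales 40.4% and 40.3% of all genes were above 0, beside 52.6% in the main fit. The cause of the moves was not tested.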
